A study of Mus musculus with 6 samples.

Results

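The Bcl2 family genes described here are 10 mouse genes that decide whether the mitochondrial pathway of cell death runs: Bcl2, Bcl2l1, Mcl1, Bax, Bak1, Bcl2l11, Bmf, Bbc3, Pmaip1 and Bid. They were chosen by name, as every probe whose gene name on the array is one of these symbols, which gave 20 probes on 47 spots. All 20 probes were well above background on all 6 arrays and all 10 genes were tested, among 13619 tested genes or unnamed sequences. Pre-pro-B cells deficient in Ebf1 (genotype labelled Ebf -/-) had been infected with pMYs-Ebf1-IRES-EGFP, a retrovirus for Ebf1 (insert Ebf1beta in the titles) and EGFP (n = 3 arrays), or with pMYs-IRES-EGFP, the same vector with EGFP alone (n = 3 arrays). Both groups carry the Ebf1 deficiency, and both were kept on OP9 stromal cells with 10 ng/ml each of Flt3 ligand, interleukin 7 and stem cell factor. EGFP-positive cells were sorted 24 h after infection, and their RNA was read on Agilent arrays with 1 dye. The labels do not say whether the replicates came from separate cultures or animals, so the p-values measure the spread between these samples, which may be technical. They also do not give the strength of virus expression, and Ebf1 was driven here by a retroviral vector rather than by its own promoter.

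Proteins of this family meet at the outer mitochondrial membrane. Bcl2, Bcl2l1 (Bcl-xL) and Mcl1 are anti-apoptotic: they hold the effectors Bax and Bak1 in check. The BH3-only proteins Bcl2l11 (Bim), Bmf, Bbc3 (Puma), Pmaip1 (Noxa) and Bid relieve that check by binding the anti-apoptotic members through a short helix, the BH3 region, and some of them also engage the effectors. Freed effectors open pores through which cytochrome c leaves, and caspases are then activated. In early B cell development, interleukin 7 keeps progenitors alive partly through this family, and a Bcl2 transgene is a classic means of rescuing lymphocytes that lack survival signals.

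Of the 10 genes, Bmf rose and Bcl2 fell in cells given Ebf1, by about the same factor, and the other 8 did not pass the test. Bmf was 3.03-fold higher and Bcl2 2.91-fold lower, and each change was called at 3 of the 3 probes of its gene. These were the 6 called probes of the 20, against 21.7% of all probes tested. Values are log2 signals relative to the 75th percentile of each array, and a gene is called when its brightest tested probe has an adjusted p under 0.05 (limma, Benjamini-Hochberg over 20454 probes). Called genes made up 23.7% of the genes tested, with 12.7% rising and 11.1% falling, so 2 called of 10 is a share near that background. The median log2 change was -0.20 over the 10 genes and -0.06 over all tested genes, and the median size of change was 0.30 over the 10 genes and 0.34 over all tested genes. At an unadjusted p under 0.05 the same count of 2 was reached.

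Probes of 60 bases carry these values, and 4 of them that read through in an open frame are shown so that the measured stretch of coding sequence can be seen for both called genes and for a pair of family members that were not called, Bak1 and Bcl2l11. They come from the array files, are written 5′ to 3′ in the sense of the transcript, and have mm9 positions. The Bcl2 probe A_51_P380013 (chr1:108608970-108609029, minus strand) covers the end of the part that encodes the BH1 region and the bases after it. The Bak1 probe A_52_P225207 (chr17:27158232-27158291, minus strand) lies in the part that encodes this region. Capitals in both mark the codons for the phenylalanine and glycine that the BH1 regions of the pair share. The Bcl2l11 probe A_51_P484880 (chr2:127972893-127983988, plus strand, across an exon junction) covers the end of the BH3 region, and capitals mark its glycine and aspartate codons. The Bmf probe A_51_P482239 (chr2:118358312-118358371, minus strand) carries no capitals.
Bcl2 A_51_P380013: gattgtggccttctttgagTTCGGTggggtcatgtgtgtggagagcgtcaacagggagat
Bak1 A_52_P225207: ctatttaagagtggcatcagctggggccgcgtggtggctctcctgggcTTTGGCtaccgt
Bcl2l11 A_51_P484880: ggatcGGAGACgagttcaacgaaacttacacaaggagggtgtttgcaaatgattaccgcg
Bmf A_51_P482239: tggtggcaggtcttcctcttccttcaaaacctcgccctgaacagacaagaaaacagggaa

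Bcl2 is the founding member of the family and protects cells by holding Bax, Bak1 and BH3-only proteins. Its brightest probe, A_52_P534870 (chr1:108434793-108434852, minus strand, 10 spots on each array), read 4.12, 4.25 and 4.41 on the Ebf1 virus arrays and 5.51, 5.90 and 6.0 on the control virus arrays. The groups did not overlap, and the highest Ebf1 value lay 1.1 log2 units under the lowest control value. As processed signals before scaling, these arrays read 6350, 6570 and 6712 with Ebf1 virus and 16632, 14285 and 16727 with control virus. The log2 change was -1.54 ± 0.18 (SE; 95% interval -1.95 to -1.13; limma adjusted p = 0.00077). Between the repeated spots of this probe on an array the SD was at most 0.093, smaller than the SD between arrays of 0.14 with Ebf1 virus and 0.26 with control virus.

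The other probes of Bcl2 fell too. The Bcl2 probe shown above read 3.37, 3.71 and 3.51 with Ebf1 virus and 5.28, 4.95 and 5.35 with control virus, a log2 change of -1.67 ± 0.17 (limma adjusted p = 0.000413), or 3.18-fold lower. The dimmest Bcl2 probe, A_52_P438280 (chr1:108607310-108607369), read -2.33, -1.46 and -1.23 with Ebf1 virus and 0.07, -0.14 and 0.23 with control virus. Its log2 change was -1.73 ± 0.29 (limma adjusted p = 0.00481) and -1.22 when the background was corrected by normexp instead. The outermost Bcl2 probes lie 174237 bases apart on the genome, and none of the probes differed from another in direction. Whether the probes read the same transcript form was not tested.

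Bmf is a BH3-only protein that is best known for being held at the cytoskeleton in healthy cells. Its brightest probe, A_52_P384394 (chr2:118354519-118354578, minus strand), read 5.75, 5.14 and 5.32 on the Ebf1 virus arrays and 3.46, 3.98 and 3.98 on the control virus arrays. Every Ebf1 array was above every control array, with a gap of 1.15 log2 units. The log2 change was 1.60 ± 0.22 (SE; limma adjusted p = 0.00205), and the 95% interval of the fold change ran from 2.12 to 4.33.

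The remaining Bmf probes were dim and gave the same direction. The probe shown above, A_51_P482239, read -1.92, -1.59 and -1.67 with Ebf1 virus and -3.04, -3.33 and -3.16 with control virus, a log2 change of 1.45 ± 0.16 (limma adjusted p = 0.000575). Probe A_52_P78830 (chr2:118356977-118357036) read -2.35, -2.08 and -1.81 with Ebf1 virus and -3.29, -3.73 and -3.84 with control virus, a change of 1.54 ± 0.21 (limma adjusted p = 0.00187). These dim probes depended on the background correction: with normexp the changes were 0.70 and 0.59, still called, while the brightest probe was at 1.72. With slide as a fixed block, A_52_P78830 lost its call (limma adjusted p = 0.0566).

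**Figure D1:**
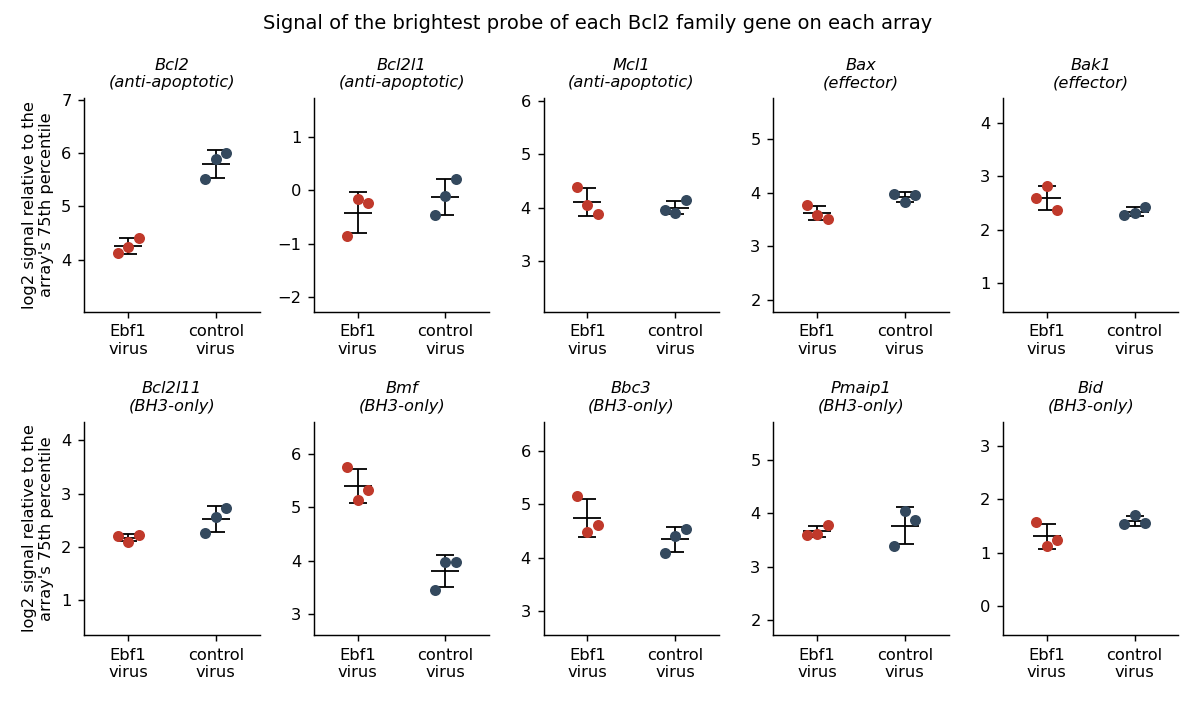
Log2 signal relative to the 75th percentile of each array (vertical axis, 4 log2 units in every panel) for the brightest probe of each of the 10 genes. Points are the 3 Ebf1 virus arrays (left, red) and the 3 control virus arrays (right, blue), with the mean and SD in black: for Bcl2 the Ebf1 arrays lie at 4.12 to 4.41 and the control arrays at 5.51 to 6.0, and for Bmf the Ebf1 arrays lie at 5.14 to 5.75 and the control arrays at 3.46 to 3.98.

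The other anti-apoptotic genes did not pass the test. Bcl2l1, the gene for Bcl-xL, read -0.86, -0.16 and -0.23 with Ebf1 virus and -0.47, -0.11 and 0.22 with control virus at its brightest probe (A_52_P148861, chr2:152606631-152606690, 10 spots). The groups overlapped, and the log2 difference was -0.29 ± 0.25 (SE; 95% interval -0.88 to 0.29; limma adjusted p = 0.432). Its other probes were at -0.06 ± 0.26 and 0.09 ± 0.27. At all 3 probes the first Ebf1 array was the lowest of the 6.

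Mcl1, a short-lived anti-apoptotic protein that lymphoid progenitors need, read 4.38, 4.05 and 3.88 with Ebf1 virus and 3.96, 3.90 and 4.13 with control virus (A_51_P238786, chr3:95466855-95466914). The groups overlapped and the log2 difference was 0.10 ± 0.17 (SE; 95% interval -0.30 to 0.51; limma adjusted p = 0.70). The second Mcl1 probe (A_52_P93933, chr3:95465543-95465602) was at -0.31 ± 0.16 (SE; 95% interval -0.69 to 0.07; limma adjusted p = 0.21), so the probes of Mcl1 differed in sign and neither was called.

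Both effectors stayed short of the threshold. Bax, which moves from the cytosol to mitochondria when activated, read 3.77, 3.59 and 3.51 with Ebf1 virus and 3.98, 3.82 and 3.96 with control virus (A_51_P254541, chr7:52721469-52721624, across an exon junction, 10 spots). The groups did not overlap, by a gap of 0.046, and the log2 difference was -0.30 ± 0.14 (SE; 95% interval -0.63 to 0.04; limma adjusted p = 0.18). Bak1, the effector that sits in the mitochondrial membrane, read 2.60, 2.81 and 2.37 with Ebf1 virus and 2.27, 2.31 and 2.43 with control virus (A_51_P395011, chr17:27156967-27157026). The groups overlapped, the difference was 0.26 ± 0.16 (SE; 95% interval -0.12 to 0.63; limma adjusted p = 0.287), and the BH1 probe shown above was at 0.22 ± 0.28.

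Among the BH3-only genes, Bmf was the 1 of 5 that was called. Bcl2l11, whose product Bim is a main trigger of death in lymphocytes deprived of cytokine, read 2.20, 2.10 and 2.22 with Ebf1 virus and 2.26, 2.57 and 2.74 with control virus (A_52_P158527, chr2:127988051-127988110). The groups did not overlap, by a gap of 0.035, and the log2 difference was -0.35 ± 0.16 (SE; 95% interval -0.73 to 0.04; limma adjusted p = 0.174). The BH3 probe shown above was at -0.42 ± 0.24 (limma adjusted p = 0.237). The third probe (A_52_P348214, chr2:127954736-127955417, across an exon junction) was at -0.37 ± 0.16 (limma adjusted p = 0.147), and it was called with quantile normalisation (adjusted p = 0.036). The Bcl2l11 probes thus gave the same sign at 3 of 3 probes, with none called.

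Bbc3 encodes Puma, a p53 target that binds all anti-apoptotic members. It read 5.15, 4.48 and 4.61 with Ebf1 virus and 4.09, 4.40 and 4.54 with control virus (A_51_P248122, chr7:16903403-16903462), a difference of 0.41 ± 0.22 (SE; 95% interval -0.10 to 0.91; limma adjusted p = 0.22). The groups overlapped, and the first Ebf1 array was the highest of the 6. Pmaip1, which encodes the Mcl1-selective Noxa, read 3.59, 3.61 and 3.78 with Ebf1 virus and 3.38, 4.04 and 3.88 with control virus, a difference of -0.11 ± 0.20 (SE; 95% interval -0.56 to 0.35; limma adjusted p = 0.731). Bid, which links death receptors to mitochondria once caspase-8 has cut it, read 1.58, 1.12 and 1.23 with Ebf1 virus and 1.54, 1.70 and 1.56 with control virus (A_52_P574653, chr6:120843464-120843523). Its groups overlapped through the first Ebf1 array, and the difference was -0.29 ± 0.16 (SE; 95% interval -0.67 to 0.10; limma adjusted p = 0.248).

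Groups did not overlap for 4 of the 10 genes, Bcl2, Bmf, Bax and Bcl2l11, against 45.5% of all genes with a value on every array. The log2 differences of the 8 genes that were not called ran between -0.35 and 0.41. Their 95% intervals reached down to -0.88 and up to 0.91, so smaller changes of these genes may have gone undetected with 3 arrays a group.

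**Figure D2:**
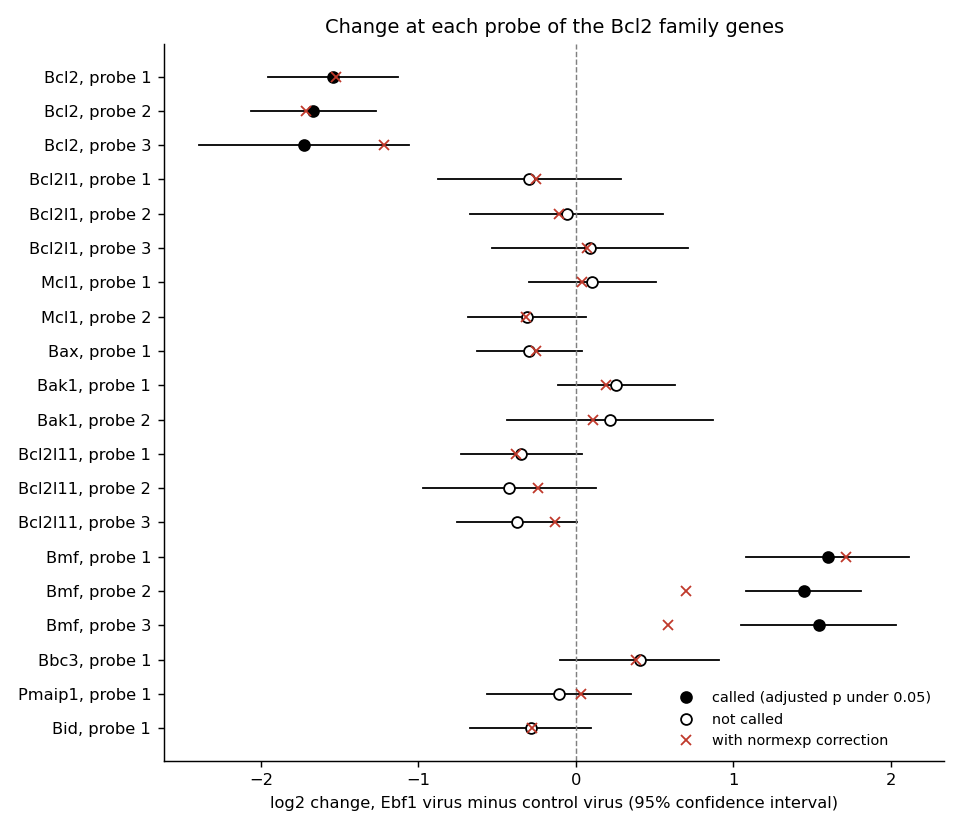
Log2 change, Ebf1 virus minus control virus (horizontal axis), with its 95% confidence interval at each of the 20 probes, numbered within a gene by falling brightness. Filled points were called and open points were not; red crosses are the change with normexp background correction, which lies nearer to 0 at the dim probes of Bmf (0.70 and 0.59) and at the third Bcl2 probe (-1.22).

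Within an array the scaling cancels, so the changes of Bcl2 and Bmf were also read against the mean of the 8 genes of the family that were not called, a description chosen after their values were seen. Taken against that mean and centred on the control arrays, Bcl2 was at -1.68, -1.46 and -1.27 on the Ebf1 virus arrays and at -0.12, 0.06 and 0.06 on the control virus arrays. Bmf was at 1.94, 1.43 and 1.64 with Ebf1 virus and at -0.18, 0.14 and 0.03 with control virus. The change in the log2 ratio of Bmf to Bcl2, which needs no scaling between arrays, averaged 3.14 ± 0.42 on the Ebf1 arrays (SD, n = 3), and the 3 control arrays had an SD of 0.073 around their mean. Since the genes were picked by their calls, these values describe the arrays and test nothing.

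Slide and group cannot be told apart except on 1 of the 3 slides, which held the first Ebf1 array and the second control array. On it the log2 difference was -1.77 for Bcl2 and 1.77 for Bmf. For the genes that were not called, the difference on this slide ran from -0.75 for Bcl2l1 to 0.75 for Bbc3, without replication. Across the 17 alternative ways of processing, Bcl2 stayed between -1.85 and -1.39 and Bmf between 1.29 and 1.77. With slide as a fixed block the change is the difference on this slide over again, from 1 array a group. In the other alternatives the adjusted p was at most 0.01005 for Bcl2 and 0.01985 for Bmf (limma). None of the other 8 genes was called at its brightest probe in any of the 17, and 129 of their 136 alternative values had the sign given here. Some alternatives cannot alter a log2 change: the other filters, the replicate block, the trend and robust options and the deposited table. Their values are counted among those with the same sign.

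**Figure D3:**
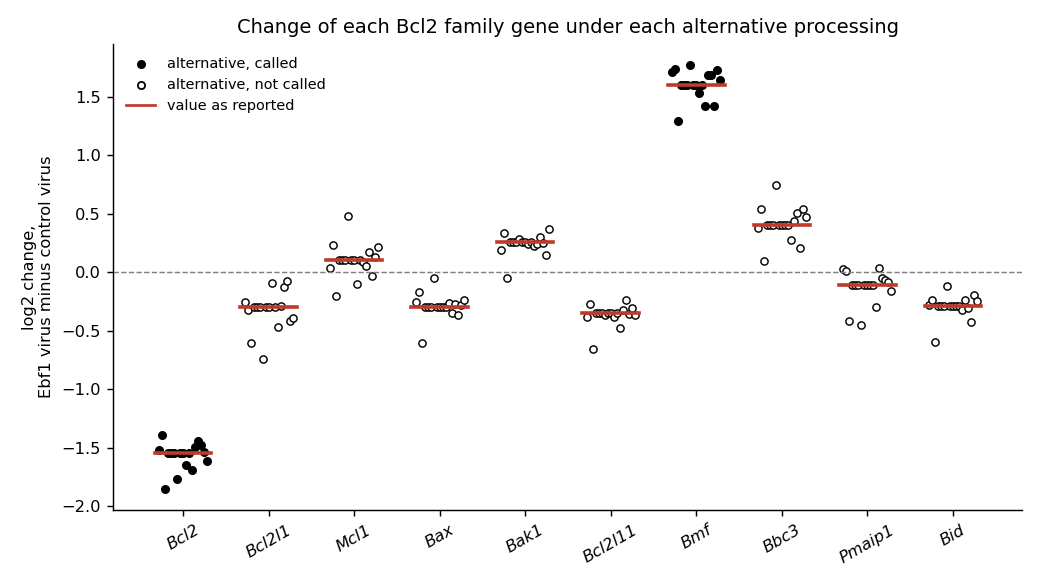
Log2 change of each of the 10 genes (vertical axis) under 17 alternative ways of processing, 1 point for each, with the value reported here as a red line. Filled points were called: those of Bcl2 lie between -1.85 and -1.39, those of Bmf between 1.29 and 1.77, and all points of the other 8 genes are open.

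Over all arrays, 50.3% to 59.8% of probes were above background with Ebf1 virus and 46.3% to 50.2% with control virus, and the 75th percentile signal was 316 to 364 with Ebf1 virus and 240 to 366 with control virus. Arrays correlated at 0.984 to 0.993 within groups and at 0.938 to 0.958 between groups (Pearson r over tested probes). The Ebf1 probe read 0.29 ± 0.09 with Ebf1 virus and 0.44 ± 0.39 with control virus (SD, n = 3 each; limma adjusted p = 0.646); whether it lies in the viral insert is not known here, so it checks nothing about the labels. Progenitor markers were present: 9 of 9 were tested, 5 fell and 1 rose in cells given Ebf1, beside 23.7% of all tested genes called. Of 7 B lineage markers 5 were tested and rose, and Cd79a and Pax5 were not above background on all arrays of a group. The rise of Blnk was not called with normexp, no filter on dim probes, the replicate block or slide as a fixed block. It also ended without any 1 of the control arrays or without Ebf1 array 2 (adjusted p up to 0.0941).

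Markers of other cells were read as well, beside the background of 23.7% of all tested genes called. Their part in the changes of Bcl2 and Bmf was not tested. Of 19 stromal markers, which OP9 feeder cells would carry, 15 were tested, 3 rose (0 to 3 when each array was left out) and 0 fell. That is a called share of 20%, near the background, while the fitted change was above 0 for 14 and below 0 for 1. Their summed linear level was 34.2 to 42.9 with Ebf1 virus and 22.4 to 30.6 with control virus. Of the untested stromal markers, Postn and Dcn were above background on 0 arrays, and Vcam1 and Pdgfra on 1 Ebf1 array each. Of the 5 tested T cell markers 2 fell and 0 rose (summed level 13.6 to 15.4 with Ebf1 virus and 15.4 to 18.2 with control virus). Most of this sum came from Lck and Thy1, which were not called, and Thy1 is also on the stromal list. Mean log2 values with Ebf1 virus and control virus were 3.42 and 3.53 for Lck and 1.86 and 2.15 for Thy1. Those of the fallen genes were -3.77 and -2.24 for Cd3g and -3.33 and -1.57 for Cd3d. Neither fall, of Cd3g or of Cd3d, was called with slide as a fixed block (adjusted p = 0.0684 and 0.0882), and that of Cd3d was not with no filter. Untested Cd8a was above background on 0 arrays, Cd4 on 1 Ebf1 array and Bcl11b on 2 Ebf1 arrays. Natural killer markers summed to 45.9 to 53.8 with Ebf1 virus and 11.4 to 16.3 with control virus, with 1 risen and 2 fallen of 4 tested. Gzma alone made up 41.4 to 48.4 of that sum with Ebf1 virus and 0.919 to 1.19 with control virus, and the other 3 genes summed to 4.04 to 5.41 with Ebf1 virus and 10.3 to 15.1 with control virus. The fall of Klrd1 was not called with slide as a fixed block (adjusted p = 0.056), Klrb1c was above background on 0 arrays and Ncr1 on 1 Ebf1 array. Myeloid markers summed to 1.16 to 1.73 with Ebf1 virus and 3.81 to 5.29 with control virus, with 1 risen and 2 fallen of 4 tested. Most of this sum came from Mpo, which fell, with mean log2 values of 0.25 with Ebf1 virus and 2.01 with control virus. Fcgr1, which also fell, was at -3.67 and -1.38. Csf1r, which rose, was at -2.81 and -4.50, and Lyz2, which was not called, at -3.81 and -4.19. The rise of Csf1r was not called with normexp (adjusted p = 0.0597) or with slide as a fixed block (adjusted p = 0.0636). S100a8 was above background on 0 arrays, Itgam and Elane on 1 Ebf1 array each, and Ly6c1 on 2 Ebf1 arrays and 1 control array. In these bulk samples, fewer cells of a type and less RNA per cell cannot be told apart.

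Genes that act beside, after or before the 10 were counted on 5 lists, beside the same background of 23.7% called. Of the other members of the Bcl2 family, 14 of 16 were on the array, 8 were tested, 2 rose and 0 fell. Bnip3, a mitochondrial protein of hypoxia and mitophagy, read 4.65, 4.43 and 4.49 with Ebf1 virus and 3.50, 3.31 and 4.04 with control virus, a log2 change of 0.90 ± 0.21 (limma adjusted p = 0.0202). Bok, a relative of Bax and Bak1, read -0.87, -0.13 and -1.25 with Ebf1 virus and -2.39, -1.65 and -1.87 with control virus, a change of 1.22 ± 0.31 (limma adjusted p = 0.0302). Both calls depended on single arrays. Leaving out control array 1 or 2 or any Ebf1 array ended that of Bnip3 (log2 change 0.75 to 1.12, adjusted p up to 0.0751), and leaving out control array 1 or 3 or Ebf1 array 1 or 2 ended that of Bok (0.91 to 1.47, adjusted p up to 0.0902). With slide as a fixed block or with no filter on dim probes neither was called, and with median scaling Bnip3 was not. Bcl2a1b, an anti-apoptotic gene with near-identical copies that a probe may not tell apart, was at 0.54 ± 0.39 and not called, and the BH3-only genes Bik and Hrk were above background on 0 arrays.

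Downstream of the mitochondria, 20 of 20 caspase and apoptosome genes were tested, 1 rose and 2 fell. Diablo, which releases caspases from their inhibitors, read 2.51, 2.48 and 2.42 with Ebf1 virus and 3.39, 3.64 and 3.53 with control virus, a log2 change of -1.05 ± 0.14 (limma adjusted p = 0.00154). Its second probe was at -0.80 ± 0.28 and was not called (adjusted p = 0.0772). Cycs, the gene of cytochrome c, was at -0.89 ± 0.22 (limma adjusted p = 0.0274) and was called at 3 of 3 probes. Casp6, an executioner caspase, was at 0.87 ± 0.20 (limma adjusted p = 0.0206). Leaving out any control array ended the calls of Casp6 (0.66 to 1.01, adjusted p up to 0.0745) and Cycs (-1.03 to -0.66, adjusted p up to 0.0926), and leaving out Ebf1 array 2 also ended that of Cycs. With no filter on dim probes neither was called, and Casp6 was not called with median scaling nor Cycs with quantile normalisation. Apaf1 and Casp9, which form the apoptosome with cytochrome c, were not called at their brightest probes, at 0.46 ± 0.15 and 0.44 ± 0.22.

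The p53 response list covers genes that share an upstream activator with Bbc3 and Pmaip1. All 16 genes were tested, 3 rose and 1 fell. Perp, a membrane protein of p53-driven death and of cell junctions, read 1.70, 1.73 and 2.30 with Ebf1 virus and 3.78, 3.56 and 3.81 with control virus (log2 change -1.81 ± 0.20, limma adjusted p = 0.000619). Trp53inp1, a stress protein, was at 0.98 ± 0.18, Cdkn1a, the cell cycle inhibitor p21, at 0.81 ± 0.18, and Phlda3, an inhibitor of Akt, at 0.73 ± 0.20 (limma adjusted p = 0.00847, 0.0175 and 0.0367). These 3 rises were lost with median scaling, with no filter on dim probes and with slide as a fixed block. Leaving out any array ended that of Phlda3 (0.54 to 0.84, adjusted p up to 0.0988), and leaving out control array 1 or 2 or Ebf1 array 2 or 3 ended that of Cdkn1a (0.70 to 0.94, adjusted p up to 0.0748). Trp53 itself was at -0.50 ± 0.18 and not called (adjusted p = 0.09).

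Death receptors can reach mitochondria through Bid. Of 11 genes on the death receptor list, 10 were tested, 0 rose and 2 fell. Fadd, the adaptor below the receptors, read -0.998, -0.91 and -0.79 with Ebf1 virus and 0.01, 0.15 and 0.20 with control virus (log2 change -1.02 ± 0.14, limma adjusted p = 0.00191). Its second probe was at -0.77 ± 0.25 and not called. Tnfsf10, the death ligand TRAIL, read -4.06, -5.29 and -3.61 with Ebf1 virus and -1.64, -1.60 and -1.53 with control virus (log2 change -2.73 ± 0.39, limma adjusted p = 0.00223). It was above background on 2 of 3 Ebf1 arrays, its change was -1.03 with normexp, and with slide as a fixed block it was not called (adjusted p = 0.0759).

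Of the 21 genes on the list of survival input from interleukin 7 and Foxo factors, 20 were tested, 5 rose and 2 fell. Ebf1 itself, the gene the virus carried, is on this list and is counted among the genes not called. Il7r, the interleukin 7 receptor chain, read 1.07, 0.98 and 1.21 with Ebf1 virus and 2.70, 2.95 and 2.67 with control virus (log2 change -1.69 ± 0.15, limma adjusted p = 0.000196). Stat5a, which carries the receptor's signal to the nucleus, was at 1.66 ± 0.26, Foxo1, a B lineage factor that Akt restrains, at 1.30 ± 0.19, and Pim2, a survival kinase induced by cytokines, at -1.10 ± 0.20 (limma adjusted p = 0.00348, 0.00233 and 0.00757). Pim2 fell at 3 of 3 probes. With slide as a fixed block Foxo1 was not called (1.02, adjusted p = 0.0723), and with no filter Pim2 was not (adjusted p = 0.0531). The feedback genes Cish and Socs3 and the phosphoinositide 3-kinase inhibitor Pik3ip1 also rose, by 0.75 ± 0.14, 0.997 ± 0.20 and 0.70 ± 0.18. Leaving out control array 2 ended the call of Socs3 (adjusted p = 0.0509), and leaving out control array 1 or 2 or Ebf1 array 1 or 2 ended that of Pik3ip1 (adjusted p up to 0.101). These 3 rises were lost with median scaling and with no filter, and those of Cish (adjusted p = 0.0888) and Pik3ip1 (adjusted p = 0.142) also with slide as a fixed block.

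**Figure D4:**
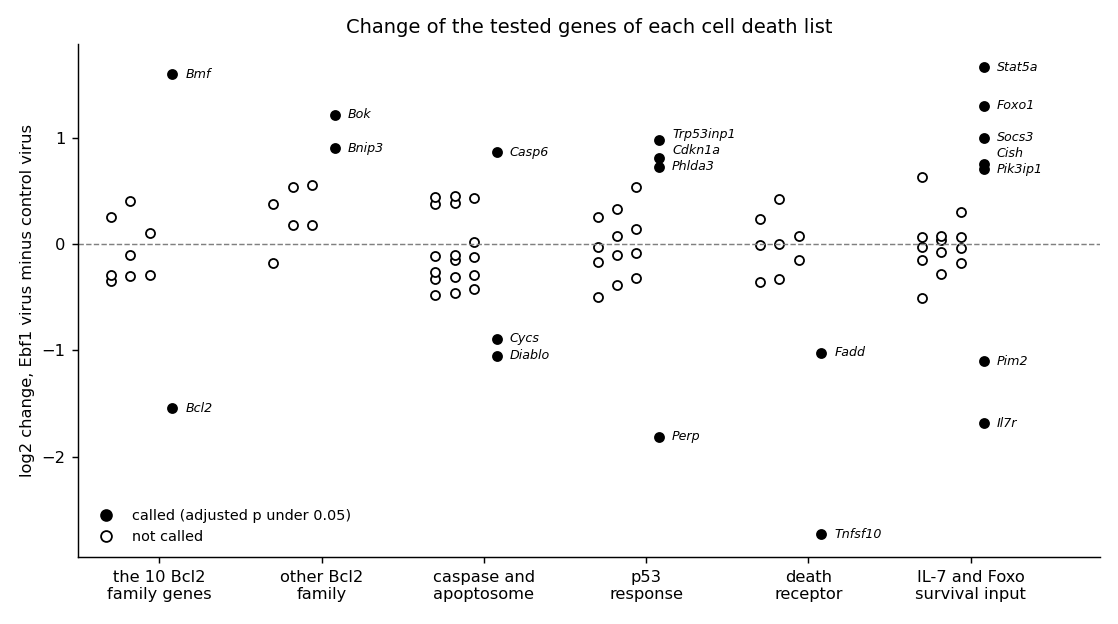
Log2 change, Ebf1 virus minus control virus (vertical axis), of the tested genes of the 10 Bcl2 family genes and of 5 lists around them, at the brightest probe of each gene. Filled points with names were called and open points were not: Bmf at 1.60 and Bcl2 at -1.54 are the called genes of the family, and the names in the other columns run from Tnfsf10 at -2.73 to Stat5a at 1.66.

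Genes with the pattern most like that of Bcl2 over the 6 arrays, by Pearson r between brightest probes, were Cd93 (0.999), Ap1s2 (0.999) and Mrpl58 (0.998). Those most like Bmf were Phldb1 (0.999), the unnamed sequence AK031010 (0.998) and Cebpb (0.998). Such values are common here: 895 genes had r above 0.95 with Bcl2 and 749 with Bmf, since the points share 2 groups that differ. RefSeq promoter windows (GRCm38.p6, 300 bases around a gene's start) were searched for the core of the Ebf1 motif, TCCCNNGGGA, which reads the same on both strands. It was found in 0.904% of 32851 windows and in 0 of the 16 windows of the 9 members that had one, which says only that these letters are not in these windows.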

How the data were processed

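Total RNA of the 6 samples was labelled with Cy3. The deposited values are spot intensities on a linear scale, extracted with Agilent Feature Extraction 10.5.1.1, per the file headers, with background subtraction and no scaling between arrays. The deposited value table held the same intensities. Log2 processed signals minus the 75th percentile of each array were used; outlier spots (65 to 116 an array) were dropped and spots of a probe averaged. A probe was tested when well above background on all 3 arrays of at least 1 group (20454 of 41174 probes). A gene was represented by its brightest tested probe. Groups were compared with limma 3.58.1 (lmFit, eBayes; R 4.3.3), two-sided, Benjamini-Hochberg over tested probes, threshold 0.05. The fit was tested on simulated data. Symbols were updated through accessions (61% of probes matched). Members and lists were chosen with earlier results of these data known. The text names all members and, from each list, up to 4 called genes of smallest p; others were chosen after their values were seen. Replicate numbers were not taken as pairs, since the labels do not say whether same-numbered samples belong together. Summed marker levels add the linear signals of tested markers relative to the 75th percentile. The number of arrays limits the precision. Alternatives were normexp (offset 50), quantile normalisation, median scaling, 2 other filters, replicate and slide blocks, eBayes trend and robust, mean of probes, the deposited table, and each array left out in turn. The filters, the replicate block, the trend and robust options and the deposited table cannot alter the log2 change of a probe. With slide as a fixed block, the log2 change is the difference between the arrays of the shared slide, 1 in each group.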

Additional observations from a re-analysis of the deposited data

How the results depend on the processing

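The count of 2 called members was the same in all 17 alternatives, and so were the directions and calls of Bcl2 and Bmf. Values near 0 changed sign: Pmaip1 was at 0.030 with normexp, 0.015 with quantile normalisation and between -0.30 and 0.033 (without control array 2) when arrays were left out. Mcl1 was at -0.21 with median scaling, -0.10 as the mean of its probes and between -0.036 (without Ebf1 array 1) and 0.21 when arrays were left out, and Bak1 at -0.052 with median scaling. Median scaling moved all log2 changes by -0.31, and 32.2% of called probes rose, against 53% of 4435. With it 1 other Bcl2 family gene, 1 p53 gene, 4 interleukin 7 and Foxo genes and 1 stromal marker were called. Without a filter on dim probes these counts were 0, 1, 3 and 0, with 1 caspase gene and 1996 probes. With slide as a fixed block they were 0, 1, 4 and 1, with 1 death receptor gene and 2167 probes. Normexp called 5 caspase genes and 7 stromal markers, trend and robust options 6 stromal markers, and the filter on all 6 arrays 1 death receptor gene. Leaving out each array gave 0 to 1 other Bcl2 family genes, 1 to 3 caspase genes, 2 to 3 p53 genes, 2 death receptor genes, 5 to 8 interleukin 7 and Foxo genes, 0 to 3 stromal markers and 2610 to 3706 probes. With the replicate block 3096 probes and 2 members were called, and Cycs, Phlda3, Pik3ip1, Blnk and the stromal marker Fstl1 were not. Same-numbered samples deviated from their group means with r of -0.17, -0.25 and 0.10. With 3 samples a group these values cannot decide whether the samples were paired, and the labels do not say. Apart from what a filter or a dropped array does to the number of probes or samples, the causes were not tested. The size of change at the dim Bmf probes depends on the background correction.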
